A study of Mus musculus with 36 samples.

Results

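Old and young regenerating mouse livers were compared at the time point labelled 96. The comparison takes the 3 count tables titled O1 96, O2 96 and O3 96, from mice aged 18 months, and the 3 titled Y1 96, Y2 96 and Y3 96, from mice aged 4 months, which makes 6 of the 36 libraries in the series. All 36 came from livers of C57BL/6JN mice, an inbred laboratory strain with no engineered allele named in the labels, at a time point before regeneration or at one labelled 48, 72, 96, 120 or 240. The labels give these numbers no unit and do not say how regeneration was set off, so the time points are called by their labels. Each of the 12 groups held 3 libraries, described as biological replicates. No agent other than the unnamed regeneration stimulus is given for either age, and bulk liver was sequenced, so that fewer cells of a type and less RNA per cell cannot be told apart.

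After loss of tissue, the liver regains its mass largely through hepatocytes that leave quiescence, copy their DNA and divide, while they go on serving metabolism. DNA replication genes are switched on by E2F factors in late G1 and S phase, and mitotic genes follow in G2 through the B-MYB and FOXM1 complexes that act at CHR elements and CCAAT boxes. Liver metabolism is also timed by the circadian clock, in which BMAL1 (the product of Arntl) and CLOCK drive Per, Cry, Dbp and related genes through E-boxes, and the products of several of those genes feed back on them.

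The libraries at 96 held 5992831, 5026140 and 3716709 counts in young 1 to 3 and 2328233, 4426664 and 3648545 in old 1 to 3. Old 1 was the smallest library of the series, and on the first principal component of these 6 libraries, which held 39.4% of the variance, it lay at 62.3, while old 2 and old 3 lay at 12.1 and -5.39 and the 3 young libraries lay between -30.4 and -9.31. Young 2 and old 1 held Y-linked transcripts, at 231 and 180 CPM (counts scaled to a common library size), and the other 4 libraries held none of them. Xist, a long noncoding RNA gene of the X chromosome, was at 2.66 and 2.58 CPM in young 2 and old 1. In the other 4 libraries it was at 3292 to 4168 CPM. Each age thus mixed the 2 kinds, with 1 library that held Y-linked transcripts. Leaving out young 2 or old 1 leaves that age with libraries of the other kind only. Levels are CPM after scaling by TMM, a method that balances the bulk of genes between libraries, and differences are log2 fold changes, old minus young, with their standard error (SE). Because genes differ in length, levels are compared between libraries and not between genes. Hepatocyte markers were alike at both ages: none of 10 passed the test, their summed level was 52840 to 59180 CPM in young and 49640 to 61030 CPM in old, and Alb, which encodes albumin, was at 10590, 8506 and 8264 CPM in young livers and 9247, 8477 and 9160 in old.

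Between old and young at 96, 54 of 13436 genes tested passed edgeR's quasi-likelihood test at an adjusted p under 0.05, which is 0.402% of them: 35 were higher in old liver (0.26%) and 19 were lower (0.141%). At an unadjusted p under 0.05, 1007 genes were higher (7.49%) and 788 were lower (5.86%). In 52 of the 54 called genes the 3 old and the 3 young values did not overlap, while over all genes tested the old values were all above the young in 9.94% and all below in 10.7%. The 54 were picked by a test on the same values, so this separation describes them and adds no support to the calls. The calls depended on single libraries: leaving out young 1, young 2, young 3, old 1 or old 2 gave 1, 0, 10, 0 and 0 calls, leaving out old 3 gave 116, and DESeq2 on the same counts gave 230. With the robust form of the edgeR test 23 genes were called, all among the 54, and with the 12 libraries of the series that held Y-linked transcripts left out 21 were called, 8 of them among the 54. Fitting only the 6 libraries at 96 called 47 genes, 20 of them among the 54. None of the 54 changed direction in any of the alternatives, and none kept its call in all of them.

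**Figure D1:**
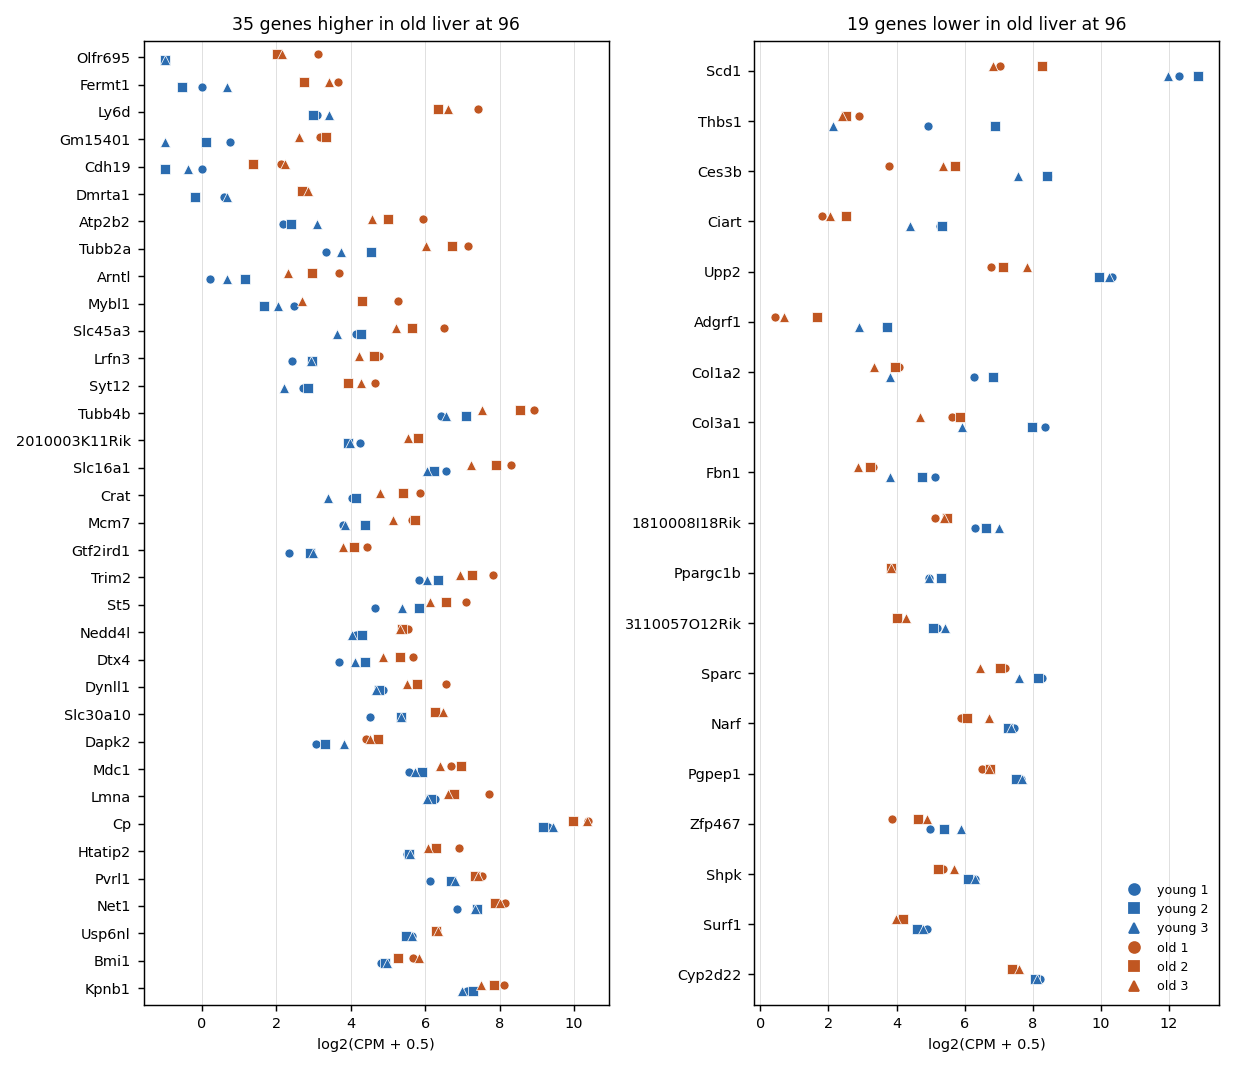
Level of each of the 54 called genes in the 6 libraries at 96, as log2 of CPM plus 0.5, with 35 genes higher in old liver on the left and 19 lower on the right, ordered by fitted change. Blue points are young and orange points old, and the shape gives the library number. Old and young points stand apart in all genes except Col1a2 and Thbs1, and in many genes old 1 is farthest from young and old 3 is nearest.

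Genes of nutrient transport and fuel use were among those that rose. Slc16a1 (chr3:104638664-104658462), which encodes the lactate and pyruvate transporter MCT1, was at 93.5, 74.7 and 66.1 CPM in young livers and 314, 239 and 148 in old, in the order of the library numbers here and in what follows. All 3 old values were above the young ones, with the highest in old 1, and the change was log2 1.58 ± 0.25, adjusted p = 0.0132, the smallest p of all genes. Slc45a3, a solute carrier gene, was at 17.1, 19 and 11.9 CPM in young livers and 90.2, 49.4 and 36.9 in old (log2 1.85 ± 0.35, adjusted p = 0.0264). Crat, whose enzyme moves acetyl groups between carnitine and coenzyme A, rose by 1.53 ± 0.33 (adjusted p = 0.0453) and Slc30a10, a manganese exporter gene, rose by 1.25 ± 0.29 (adjusted p = 0.0485). Cp, which encodes the copper-carrying plasma protein ceruloplasmin, was at 628, 570.4 and 695 CPM in young livers and 1317, 995 and 1307 in old, and rose by 0.93 ± 0.21 (adjusted p = 0.0485). Atp2b2, a calcium pump gene of the plasma membrane, had a mean of 5.596 ± 2.13 CPM (young) and 38.6 ± 19.9 CPM (old) (log2 2.80 ± 0.58, adjusted p = 0.0419).

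The beta-tubulin gene Tubb2a (chr13:34074278-34078008) was at 9.55, 22.6 and 12.7 CPM in young livers and 142, 106 and 64.7 in old. All of its old values were far above the young ones, and the fold was 6.91 (log2 2.79 ± 0.54, adjusted p = 0.0341). Tubb4b, another beta-tubulin gene, was at 85.2, 136 and 93.7 CPM in young livers and 486, 375 and 185 in old, with old 3 nearest to young (log2 1.73 ± 0.39, adjusted p = 0.0485). Tubulin genes are close in sequence, and reads shared between them could have been split or dropped in the authors' counting. Dynll1, a dynein light chain gene, was at 28.8, 26.6 and 25.1 CPM in young livers and 93.6, 54.6 and 45.0 in old and rose by 1.25 ± 0.26 (adjusted p = 0.0419). Lmna, which encodes lamins A and C, rose by 0.96 ± 0.22 (adjusted p = 0.0485), and Kpnb1, the importin beta gene, by 0.72 ± 0.16 (adjusted p = 0.0485). Pvrl1, the nectin-1 gene, rose by 0.88 ± 0.19, and Net1, a guanine nucleotide exchange factor gene, by 0.81 ± 0.18. Fermt1, the kindlin-1 gene, was at 0.503, 0.190 and 1.11 CPM in young livers and 12.02, 6.20 and 10.1 in old. The young values of Fermt1 rest on at most 4 counts a library.

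The other genes that rose had mixed roles. Ly6d (chr15:74762056-74763567), which encodes a GPI-anchored surface protein used as a marker of early B cells and of squamous epithelium, was at 8.05, 7.41 and 10.2 CPM in young livers and 170.5, 81.1 and 97.9 in old (log2 3.77 ± 0.74, adjusted p = 0.0341), and its fold of 13.6 was the largest of the genes that rose and had a mean above 5 CPM at both ages. Lrfn3, an adhesion molecule gene, was at 4.86, 7.22 and 7.19 CPM in young livers and 26.6, 23.99 and 18.3 in old (log2 1.84 ± 0.33, adjusted p = 0.0219), and it was the called gene that kept its call most often, in 12 of 17 alternatives. Usp6nl, which encodes a GTPase-activating protein for Rab5, was at 49.6, 44.1 and 49.8 CPM in young livers and 78.6, 77.5 and 81.3 in old (log2 0.73 ± 0.13, adjusted p = 0.0219), with a narrow spread at both ages. Dapk2, a death-associated protein kinase gene, rose by 1.19 ± 0.25 (adjusted p = 0.0419), and the ubiquitin ligase genes Nedd4l, Trim2 and Dtx4 rose by 1.27 ± 0.28, 1.31 ± 0.30 and 1.25 ± 0.29. Syt12, Gtf2ird1, St5, Htatip2 and 2010003K11Rik rose by 1.74 ± 0.40, 1.41 ± 0.31, 1.28 ± 0.30, 0.92 ± 0.21 and 1.69 ± 0.38, each with an adjusted p of 0.0485.

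Olfr695 (chr7:106713732-106716345), an olfactory receptor gene, had 0 counts in each young library and 8.16, 3.52 and 3.94 CPM in old 1 to 3, so its mean in old was at least 8.21-fold higher than the mean level that 3 counts per young library would give. Its neighbours on chromosome 7, Olfr697 (start 106740905), Olfr701 (start 106814129) and Olfr702 (start 106823489), were at 4.29, 2.27 and 1.97, 13.7, 5.79 and 3.38 and 5.15, 1.86 and 1.97 CPM in old 1 to 3, and at 0 to 1.11 CPM in the young libraries, without passing the test. The same 4 genes had mean levels between 1.24 and 6.60 CPM in old liver at the other 5 time points, and between 0 and 0.552 CPM in young. Olfactory receptor genes form families of close copies, so the share of reads each one received is uncertain. Gm15401, a long noncoding RNA gene, was at 1.17, 0.570 and 0.0 CPM in young livers and 8.59, 9.51 and 5.62 in old (log2 3.55 ± 0.66, adjusted p = 0.0264).

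Among the genes that fell, Scd1 (chr19:44394450-44407709) had the largest change. It encodes stearoyl-CoA desaturase, which makes monounsaturated fatty acids, and was at 4988, 7423 and 3983 CPM in young livers and 130.1, 308 and 112 in old. The groups stood far apart, with a fold of 29.7 (log2 -4.89 ± 0.999, adjusted p = 0.0419). Before regeneration the order was the other way, with 17280 ± 5601 CPM (young) and 29710 ± 7502 CPM (old), without passing the test at that time point. Other enzyme genes that fell were Ces3b, a carboxylesterase gene, at 352, 338 and 187 CPM in young livers and 13.3, 52.1 and 40.8 in old (log2 -3.02 ± 0.67, adjusted p = 0.0485). Upp2, a uridine phosphorylase gene, fell too, at 1283, 991 and 1201 CPM in young livers and 109, 139.6 and 229 in old (log2 -2.86 ± 0.65, adjusted p = 0.0485). Ces3b belongs to a cluster of similar carboxylesterase genes, so reads may be shared between copies. Cyp2d22, a cytochrome P450 gene, fell by 0.68 in log2 units (0.0485 as adjusted p, with an SE of 0.15), Shpk, a sugar kinase gene, by 0.82 (SE 0.18), and Surf1, whose product helps to assemble cytochrome oxidase, by 0.68 (SE 0.15). Ppargc1b, a coactivator gene of mitochondrial metabolism, was at 30.5, 39.3 and 30.4 CPM in young livers and 14.2, 13.8 and 13.8 in old (log2 -1.26 ± 0.29, adjusted p = 0.0485).

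The rest of the genes that fell outside the matrix and the clock were Pgpep1, Narf, Zfp467, Adgrf1, 3110057O12Rik and 1810008I18Rik. Pgpep1, which encodes pyroglutamyl-peptidase I, was at 201, 179.9 and 206 CPM in young livers and 91.0, 107 and 104 in old (log2 -0.96 ± 0.18, adjusted p = 0.0264) and had the smallest p of the genes that fell. Narf, whose product binds prelamin A, was at 176, 153 and 163 CPM in young livers and 59.3, 67.0 and 105 in old (log2 -1.08 ± 0.23, adjusted p = 0.0419). For 3110057O12Rik, which RefSeq names Abhd18, the change was log2 -1.14 ± 0.24, adjusted p = 0.0419, for the zinc finger gene Zfp467 it was log2 -0.94 ± 0.22, adjusted p = 0.0485, and for the long noncoding RNA gene 1810008I18Rik it was log2 -1.33 ± 0.31, adjusted p = 0.0485.

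Cdh19, Dmrta1 and Adgrf1 differed between the ages before regeneration as well, where 8 genes were called (0.0595%). Cdh19, a cadherin gene, was at 0.503, 0.0 and 0.276 CPM in young livers and 3.87, 2.07 and 4.22 in old at 96 (log2 3.49 ± 0.79, adjusted p = 0.0485), and its change before regeneration was log2 5.19 ± 0.82, adjusted p = 0.00429. The young values of Cdh19 at 96 rest on at most 3 counts a library. Dmrta1, a DMRT-family transcription factor gene, was at 1.01, 0.38 and 1.11 CPM in young livers and 6.44, 6.00 and 6.75 in old (log2 2.93 ± 0.68, adjusted p = 0.0485), against log2 3.45 ± 0.64, adjusted p = 0.0178 before regeneration. Adgrf1, an adhesion G protein-coupled receptor gene, was at 12.4, 12.7 and 6.91 CPM in young livers and 0.859, 2.69 and 1.125 in old (log2 -2.64 ± 0.62, adjusted p = 0.0485), against log2 -3.62 ± 0.56, adjusted p = 0.00429. The age differences of these 3 genes at 96 were not called different from those before regeneration (0.769, 0.923 and 0.791 as adjusted p, edgeR).

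The promoters of the cell cycle and clock genes show letters that the factors named above are known to bind, and a few are printed here before the values of those lists. Windows are from RefSeq, build GRCm38.p6, a patch of the assembly named in the submitters' processing notes, lie upstream of each gene's own annotated start, and run 5′ to 3′ on the gene's strand. Capitals mark matches, on either strand, to E2F sites (TTTCCCGC, TTTCGCGC, TTTGCCGC or TTTGGCGC), the CHR (TTTGAA), the CCAAT box (CCAAT) and, in Ciart, the E-box (CACGTG).
Mcm5, helicase subunit, chr8:75109354-75109467, + strand: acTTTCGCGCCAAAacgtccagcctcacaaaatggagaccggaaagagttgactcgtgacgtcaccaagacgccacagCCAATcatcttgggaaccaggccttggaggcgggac
Mki67, proliferation marker, chr7:135716451-135716574, - strand: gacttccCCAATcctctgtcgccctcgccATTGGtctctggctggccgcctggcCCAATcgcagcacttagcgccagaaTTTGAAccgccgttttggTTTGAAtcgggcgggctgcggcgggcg
Cdk1, mitotic kinase, chr10:69352913-69353047, - strand: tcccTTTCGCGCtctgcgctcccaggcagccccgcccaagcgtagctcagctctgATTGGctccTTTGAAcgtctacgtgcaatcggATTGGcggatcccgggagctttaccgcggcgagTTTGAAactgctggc
Ccnb1, cyclin B1, chr13:100786487-100786591, - strand: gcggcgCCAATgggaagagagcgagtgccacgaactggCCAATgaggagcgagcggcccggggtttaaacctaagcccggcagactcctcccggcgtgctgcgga
Ciart, clock repressor, chr3:95882259-95882288, - strand: ggCACGTGcagaaccgCACGTGtctgggag
In Mcm5 the E2F letters on the 2 strands overlap by 4 bases, Mki67 and Cdk1 each hold 2 CHR matches beside CCAAT boxes, Ccnb1 holds 2 CCAAT boxes and no CHR match, and Ciart holds 2 E-boxes in the 30 bases shown, which lie within the span of another RefSeq gene. Over windows from 250 bases before to 50 after the start, which could be matched for 10169 of 13416 tested genes with a usable symbol, the CHR letters were in 75.0% of 52 promoters of the mitosis list and 14.8% of all. The E2F letters were in 40.0% of 30 promoters of the DNA replication list and 4.45% of all, and CCAAT was in 69.2% of the mitosis promoters, 60.0% of the DNA replication promoters, 76.5% of the clock promoters and 42.7% of all. The E-box letters were in 29.4% of 17 promoters of the clock list and 11.5% of all. The letters TAGGTCA, called the ROR element, were also searched for. They were in 11.8% of the clock promoters, 7.69% of the mitosis promoters, 3.33% of the DNA replication promoters and 2.53% of all. A match is a description of the letters and does not show that a factor bound there.

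The gene lists here and below were chosen with earlier results of these data known, so their shares beside all genes are descriptions. DNA replication genes were higher in old liver at 96 more often than genes at large, though only Mcm7 passed the test. Of 36 members of the list tested, 19 were higher at an unadjusted p under 0.05 and 0 lower, which is 52.8% against 7.49% of all genes. In 21 members all 3 old values were above all young ones, which is 58.3% against 9.94% of all genes. The median change of the list was 0.84, beside -0.01 for all genes tested. Mcm7 (chr5:138164583-138172111), which encodes a subunit of the replicative helicase, was at 13.2, 20.3 and 13.8 CPM in young livers and 49.4, 52.3 and 34.9 in old. All old values were above the young ones and the change was log2 1.52 ± 0.31, adjusted p = 0.0419. Other helicase genes did not pass: Mcm2 was at 10.1, 12.5 and 10.2 CPM in young livers and 30.1, 35.8 and 31.5 in old (log2 1.57 ± 0.50, adjusted p = 0.135) and Mcm5 at 6.87, 12.7 and 8.02 CPM in young livers and 31.8, 32.0 and 19.1 in old (log2 1.58 ± 0.61, adjusted p = 0.235). Genes that supply or join nucleotides had similar patterns, with Rrm1, the large subunit of ribonucleotide reductase, at 15.6, 20.3 and 16.6 CPM in young livers and 45.5, 41.6 and 27.6 in old (log2 1.120 ± 0.27, adjusted p = 0.0509) and Rrm2, its small subunit, at 8.72, 22.8 and 8.57 CPM in young livers and 76.4, 58.5 and 18.6 in old (log2 1.91 ± 0.57, adjusted p = 0.119). Fen1, a flap endonuclease gene, was at 15.1, 25.3 and 14.1 CPM in young livers and 45.5, 62.9 and 32.4 in old (log2 1.37 ± 0.34, adjusted p = 0.0609). Cdc6, which loads the helicase, had log2 2.04 ± 0.60, adjusted p = 0.1104. Pcna, the sliding clamp of the polymerases, had log2 0.54 ± 0.27, adjusted p = 0.398. The summed level of the list was 365 to 516 CPM in young and 591 to 839 CPM in old, so the groups did not overlap. DESeq2 called 5 members, beside 230 of all 13436 genes tested. Leaving out any 1 of the 6 libraries left the median between 0.77 and 1.13, and 12 members were at an unadjusted p under 0.05 without old 2.

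Mitotic genes had a larger median change and a wider spread among the old livers. Of 62 members tested, 55 were higher at an unadjusted p under 0.05, which is 88.7% against 7.49% of all genes. The 1 that was lower was Cit, the citron kinase gene (log2 -1.50 ± 0.60, adjusted p = 0.263). None of the 62 passed at an adjusted p under 0.05 with edgeR, and 7 did with DESeq2, which called 230 of all 13436 genes tested. The median change was 1.65. The old livers were not alike: the summed level of the list was 570, 1155 and 808 CPM in young 1 to 3 and 3581, 3704 and 895 CPM in old 1 to 3, so that old 3 lay within the young range. The list's median was 1.37 to 2.08 when 1 library was left out, lowest without old 2 and highest without old 3. Without old 3, 11 members were called, beside 116 of all 13713 genes tested in that fit. The number higher at an unadjusted p under 0.05 was 27 without old 2, 33 without young 1 and 40 without old 1.

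Named mitotic genes followed that division of the old livers. Mki67, the gene of the proliferation marker Ki-67, was at 167, 376 and 266 CPM in young livers and 1031, 1108 and 263 in old (log2 1.57 ± 0.72, adjusted p = 0.342). Top2a, DNA topoisomerase II alpha, was at 24.1, 49.0 and 27.6 CPM in young livers and 136, 139 and 36.6 in old. Cdk1, the mitotic kinase, was at 1.84, 5.51 and 4.15 CPM in young livers and 17.2, 14.9 and 1.97 in old, and Ccna2, cyclin A2, at 11.2, 26.6 and 14.1 CPM in young livers and 82.5, 80.8 and 19.1 in old. In each of these 4 genes old 1 and old 2 were above every young library and old 3 was not. Ccnb1, cyclin B1, was at 1.34, 3.61 and 2.49 CPM in young livers and 32.2, 21.7 and 5.62 in old, and its groups did not overlap (log2 2.98 ± 0.78, adjusted p = 0.0739). Nek2, a kinase gene of centrosome separation, was at 8.05, 25.1 and 8.85 CPM in young livers and 152, 104 and 25.6 in old (log2 2.72 ± 0.71, adjusted p = 0.0717). Ect2, whose product directs the cleavage furrow, was at 3.86, 5.70 and 6.91 CPM in young livers and 31.4, 42.8 and 12.9 in old (log2 2.43 ± 0.59, adjusted p = 0.0533). Kif20a, a kinesin gene of the spindle midzone, was at 9.22, 20.5 and 8.02 CPM in young livers and 97.9, 81.3 and 15.8 in old (log2 2.34 ± 0.62, adjusted p = 0.0809).

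Transcription factors and other regulators of the cell cycle had a smaller median change than the replication and mitosis lists. The change was above 0 in 93.1% of those tested, beside 48.5% of all genes. Their summed level was 745 to 1106 CPM in young and 1131 to 1438 CPM in old, so the groups did not overlap. Of 29 cell cycle regulators tested, 5 were higher and 1 lower at an unadjusted p under 0.05. That is 17.2% and 3.45%, beside 7.49% and 5.86% of all genes, and the median change was 0.49. Without old 1 or old 2, 3 were higher, and without old 3, 8 were. Foxm1, the factor of G2 and M phase genes, was at 6.87, 14.2 and 9.95 CPM in young livers and 29.6, 51.9 and 12.1 in old (log2 1.61 ± 0.63, adjusted p = 0.253). Mybl1, which encodes A-MYB and is outside the list, passed the test, at 5.03, 2.66 and 3.59 CPM in young livers and 37.8, 19.2 and 5.91 in old (log2 2.42 ± 0.56, adjusted p = 0.0485), with old 3 just above the young values. E2f8, an atypical E2F repressor gene, was at 12.2, 16.1 and 26.3 CPM in young livers and 40.4, 86.0 and 53.4 in old (log2 1.75 ± 0.47, adjusted p = 0.0834). E2f1, an activator, had log2 0.80 ± 0.48, adjusted p = 0.504. Neither of the G1 cyclin genes named here passed: Ccnd1, cyclin D1, had log2 0.55 ± 0.62, adjusted p = 0.772. Ccne1, cyclin E1, had log2 0.59 ± 0.57, adjusted p = 0.724. Rbl2, which encodes the pocket protein p130 that holds cells in quiescence, was at 76.1, 72.8 and 73.5 CPM in young livers and 42.5, 50.04 and 56.0 in old (log2 -0.58 ± 0.15, adjusted p = 0.0760). Cdkn1a, the gene of the p53-driven inhibitor p21, was at 11.7, 15.8 and 6.91 CPM in young livers and 91.5, 31.8 and 6.47 in old (log2 1.85 ± 0.64, adjusted p = 0.172), with old 3 below all young libraries. Among the other p53 targets, Sesn2 had log2 0.83 ± 0.27, adjusted p = 0.154 and Perp log2 0.50 ± 0.17, adjusted p = 0.157, and the median of the 22 tested was 0.19, or -0.04 without old 1. Mybl2, the gene of B-MYB, and Cdkn2a, the gene of p16, were too low to be tested.

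DNA repair and chromatin genes were also higher more often than genes at large, of which 7.49% were higher and 5.86% lower at an unadjusted p under 0.05. The shares higher were 46.4% of the repair list, 35.7% of the chromatin regulators and 29.6% of the clustered histone genes. In the repair and checkpoint list 13 of 28 members were higher and 0 lower at an unadjusted p under 0.05, with a median change of 1.00, and none was called with edgeR. Without young 1, 7 were higher, and without old 2, 5 were. Mdc1, a mediator of the DNA damage checkpoint that is outside the list, was called, at 47.1, 59.5 and 52.0 CPM in young livers and 102, 125 and 84.4 in old (log2 0.98 ± 0.22, adjusted p = 0.0485). Brca1, a gene of homologous recombination, was at 18.8, 23.8 and 25.4 CPM in young livers and 50.7, 62.0 and 40.5 in old (log2 1.18 ± 0.30, adjusted p = 0.0629), Brca2 had log2 0.86 ± 0.24, adjusted p = 0.0877 and the checkpoint kinase gene Chek1 had log2 1.49 ± 0.55, adjusted p = 0.212. Of 28 chromatin regulators 10 were higher and 2 lower, and 5 were higher without young 1, young 3 or old 2 and 6 without old 1. Hells, a remodeller gene linked to DNA methylation, was at 1.84, 4.75 and 3.87 CPM in young livers and 12.4, 16.8 and 10.4 in old (log2 1.94 ± 0.47, adjusted p = 0.0580), and the maintenance methylation genes Dnmt1 and Uhrf1 had log2 0.69 ± 0.25, adjusted p = 0.187 and log2 1.27 ± 0.66, adjusted p = 0.411. The 2 that were lower encode enzymes that oxidise methylcytosine: Tet3 had log2 -0.62 ± 0.17, adjusted p = 0.0835 and Tet1 log2 -1.71 ± 0.51, adjusted p = 0.118. Bmi1, a Polycomb gene outside the list, passed the test at 27.7, 29.6 and 30.7 CPM in young livers and 50.7, 37.8 and 56.8 in old (log2 0.72 ± 0.16, adjusted p = 0.0485), whereas the Polycomb methyltransferase gene Ezh2 had log2 0.20 ± 0.33, adjusted p = 0.853, the demethylase gene Kdm6b log2 -0.10 ± 0.18, adjusted p = 0.878 and the lamin B1 gene Lmnb1 log2 0.64 ± 0.43, adjusted p = 0.565. Clustered histone genes, whose messages lack poly(A) tails and are kept in libraries of total RNA, were higher in 16 of 54 and lower in 0, with a median of 0.70. Without young 1, 6 were higher, without old 2, 2 were, and without old 3, 27 were. H2afx, a histone variant gene, was at 17.8, 28.3 and 22.1 CPM in young livers and 73.4, 84.8 and 28.4 in old (log2 1.45 ± 0.43, adjusted p = 0.1104).

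**Figure D2:**
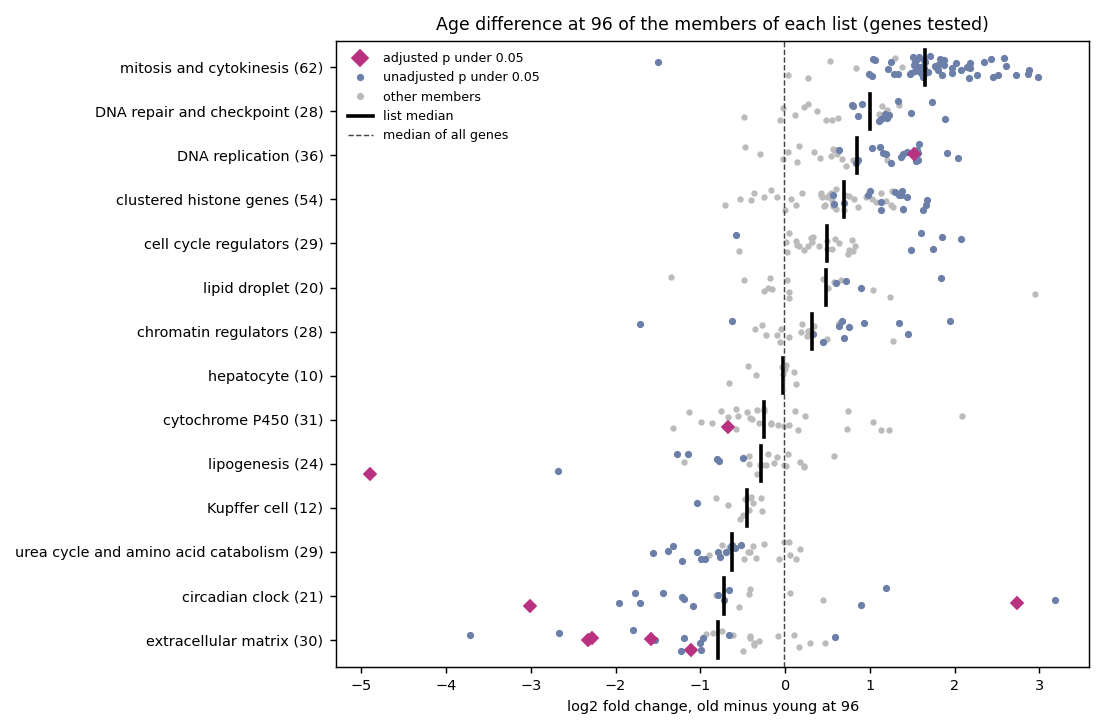
Age difference at 96, old minus young in log2, of every tested member of 14 lists, with the number tested in parentheses. Diamonds passed at an adjusted p under 0.05, dark points at an unadjusted p under 0.05, black bars are list medians and the dashed line is the median of all genes. The mitosis list is centred at 1.65 with no member called, the hepatocyte markers lie near 0, and the extracellular matrix list is centred at -0.80 with 4 members called.

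Clock genes were called in both directions. Arntl (chr7:113178471-113314126), which encodes the activator BMAL1, was at 0.670, 1.71 and 1.11 CPM in young livers and 12.4, 7.24 and 4.50 in old, and Ciart, a repressor that BMAL1 and CLOCK switch on, was at 38.6, 39.5 and 20.5 CPM in young livers and 3.01, 5.17 and 3.66 in old. Arntl rose (log2 2.74 ± 0.62, adjusted p = 0.0485) and Ciart fell (log2 -3.01 ± 0.70, adjusted p = 0.0485), and neither overlapped between the ages. Of 21 members of the list tested, 4 were higher and 11 lower at an unadjusted p under 0.05, beside 7.49% and 5.86% of all genes, and the median change was -0.72. The 4 that were higher were Arntl, Clock, Npas2 and Nfil3. Clock encodes the partner of BMAL1 and was at 75.1, 93.5 and 78.0 CPM in young livers and 179, 148 and 132 in old (log2 0.89 ± 0.21, adjusted p = 0.0509). Npas2, its paralogue, was at 0.503, 0.190 and 0.0 CPM in young livers and 4.72, 2.48 and 1.125 in old. A level of 3 counts was 0.503, 0.570 and 0.829 CPM in young 1 to 3, so the young values of Arntl and Npas2 rest on few counts. Nfil3, a repressor of D-box genes, was at 19.1, 17.9 and 33.7 CPM in young livers and 78.2, 35.1 and 47.5 in old (log2 1.18 ± 0.42, adjusted p = 0.191). Dbp was at 68.2, 82.1 and 105 CPM in young livers and 8.59, 19.9 and 44.7 in old (log2 -1.77 ± 0.62, adjusted p = 0.184) and Tef at 376, 375 and 419.9 CPM in young livers and 106, 148 and 248 in old (log2 -1.22 ± 0.31, adjusted p = 0.0702). Both encode activators at D-boxes. The period gene Per2 was at 117, 69.7 and 77.4 CPM in young livers and 19.8, 40.7 and 53.7 in old (log2 -1.19 ± 0.36, adjusted p = 0.121). Per3, another period gene, was at 177, 141 and 202 CPM in young livers and 18.9, 59.4 and 111 in old (log2 -1.44 ± 0.49, adjusted p = 0.162). Usp2, a ubiquitin protease gene, was at 109, 96.0 and 85.1 CPM in young livers and 28.8, 23.8 and 36.0 in old (log2 -1.71 ± 0.54, adjusted p = 0.131). Nr1d1, the gene of the BMAL1 repressor REV-ERB alpha, overlapped between the ages (log2 -0.42 ± 0.50, adjusted p = 0.788). Npas2, Nfil3, Per2, Per3 and Usp2 are named here after their values were seen.

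Among the old livers, old 1 was farthest from young and old 3 nearest in Dbp, Tef, Per2, Per3, Arntl, Clock and Npas2. In Ciart and Nfil3 old 2 was nearest, and in Usp2 old 2 was farthest. The summed level of the list was 2194 to 2489 CPM in young and 1241, 1352 and 1901 CPM in old 1 to 3. The labels give no hour of collection, and its part in these or other differences was not tested. Leaving out old 1 left 3 members higher and 7 lower at an unadjusted p under 0.05, and leaving out old 3 left 4 and 12. With the robust test, or with young 1, young 2, young 3, old 1 or old 2 left out, 0 members were called in either direction. With old 3 left out 2 were called each way, and with only the 6 libraries at 96 fitted 0 were called higher and 2 lower.

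**Figure D3:**
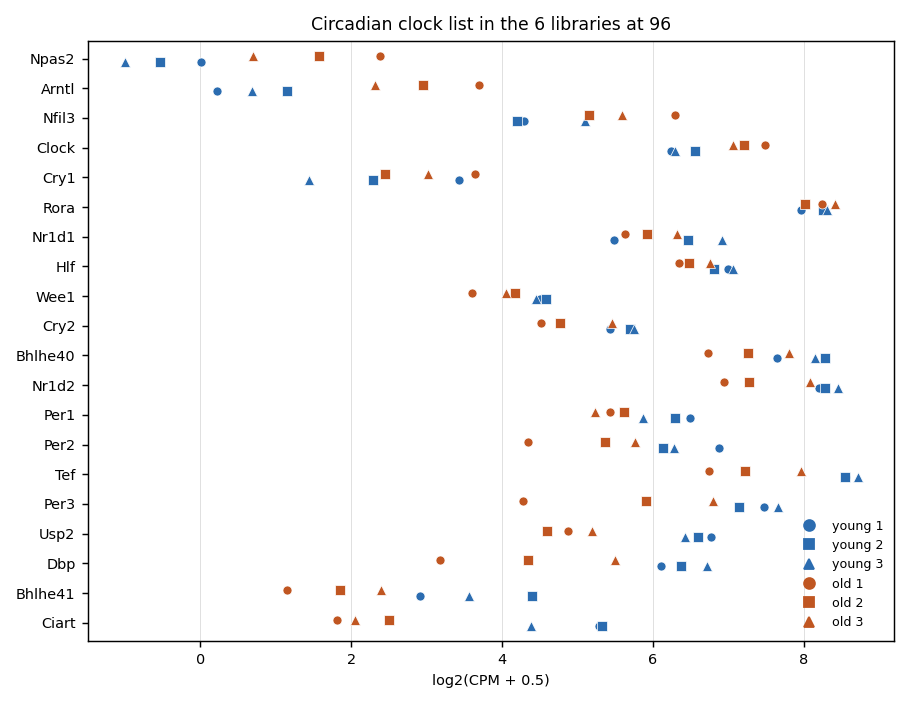
Level of 20 of the 21 members of the circadian clock list in the 6 libraries at 96, as log2 of CPM plus 0.5, ordered by fitted change. Blue points are young, orange points old, and the shape gives the library number. Old points lie to the right of young in Arntl, Npas2, Nfil3 and Clock, and to the left in Ciart, Dbp, Usp2, Per3 and Tef, with old 3 nearest to young in most of them.

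Genes of the extracellular matrix were lower in old liver, with wide spread among the young livers. Of 30 members tested 4 fell, which is 13.3% against 0.141% of all genes. At an unadjusted p under 0.05 14 were lower and 1 higher, beside 5.86% and 7.49% of all genes. The median change was -0.80. Col3a1 (chr1:45311538-45349706), a fibrillar collagen gene, was at 328, 252 and 60.5 CPM in young livers and 49.4, 57.7 and 25.3 in old (log2 -2.28 ± 0.51, adjusted p = 0.0485). Col1a2 was at 76.4, 114 and 13.5 CPM in young livers and 16.3, 15.1 and 9.56 in old (log2 -2.33 ± 0.53, adjusted p = 0.0485). In both genes young 1 and young 2 were high and young 3 lay close to the old livers, and in Col1a2 it overlapped them. Col1a1, the partner chain of Col1a2, was at 119, 234 and 22.1 CPM in young livers and 24.1, 28.9 and 6.19 in old and missed the threshold (log2 -2.66 ± 0.64, adjusted p = 0.0509). Fbn1, the fibrillin-1 gene, was at 34.4, 26.2 and 13.5 CPM in young livers and 9.45, 8.89 and 6.75 in old (log2 -1.58 ± 0.34, adjusted p = 0.0485). Sparc, a collagen-binding matrix protein gene, was at 309.6, 284 and 193 CPM in young livers and 146, 132 and 86.1 in old (log2 -1.11 ± 0.26, adjusted p = 0.0485). Thbs1, the thrombospondin-1 gene, was at 29.8, 118 and 3.87 CPM in young livers and 6.87, 5.17 and 4.78 in old, and its groups overlapped although it was called (log2 -3.20 ± 0.75, adjusted p = 0.0498). With total-count scaling, without the 12 libraries that held Y-linked transcripts, or with only the 6 libraries at 96 fitted, 0 matrix genes were called. The same held with young 1, young 2, old 1, old 2 or old 3 left out, and with young 3 left out 4 were called.

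Some markers of other cell types were high in 1 or 2 of the young libraries. Young 2 held 44.7 CPM of Gpnmb, a gene of lipid-laden and scar-associated macrophages, and the other 5 libraries held 0.276 to 2.07 CPM. Young 2 was also the highest library for Spp1, the osteopontin gene, at 29.8, 128 and 29.9 CPM in young livers and 30.5, 31.0 and 26.4 in old. The same held for the myeloid integrin gene Itgam, at 10.9, 24.9 and 4.98 CPM in young livers and 4.29, 1.65 and 3.09 in old (log2 -2.27 ± 0.73, adjusted p = 0.1396). Lyz2, the lysozyme gene of myeloid cells, was at 74.6, 124 and 44.5 CPM in young livers and 43.4, 46.7 and 36.9 in old. Of 10 monocyte and recruited macrophage markers tested, 5 were lower and 2 higher at an unadjusted p under 0.05, beside 5.86% and 7.49% of all genes. None was called, and their median change was -0.79. Without young 2, 2 were higher, 0 lower, and the median was 0.18. Their summed level was 111 to 297 CPM in young and 114 to 161 CPM in old. Cd9, a tetraspanin gene that hepatocytes also express, was among the higher ones (log2 0.94 ± 0.27, adjusted p = 0.105). F13a1, the factor XIII A gene of macrophages and platelets, was at 13.1, 13.1 and 1.11 CPM in young livers and 0.429, 0.620 and 0.281 in old, and Col6a5 at 7.54, 0.760 and 1.66 CPM in young livers and 0.429, 0.0 and 0.0 in old. Of 14 stellate cell and fibroblast markers, which include Col1a1 and Col3a1, 4 were lower (28.6%) and 1 higher (7.14%). Without young 1, 2 were lower, and without old 3, 2 were lower and 0 higher. Their summed level was 902, 982 and 533 CPM in young 1 to 3 and 499 to 598 CPM in old. The smooth muscle myosin gene Myh11 was at 89.3, 7.98 and 5.25 CPM in young livers and 6.87, 8.27 and 7.31 in old, high in young 1 alone, and the other 8 of the 9 muscle and adipocyte markers were too low to be tested. The part of these cells in the matrix differences was not tested.

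Kupffer cells and sinusoidal endothelium, the resident macrophages and vessels of the liver, had slightly lower marker levels in old liver, with no call. At an unadjusted p under 0.05, 1 of 12 Kupffer cell markers (8.33%) and 2 of 14 endothelial markers (14.3%) were lower. That stands beside 5.86% of all genes, and 0 markers of either type were higher. In 8 of 12 Kupffer cell markers all old values were below all young ones, beside 10.7% of all genes, the median change was -0.45 and the summed level was 1125 to 1327 CPM in young and 752 to 985 CPM in old. Cd163, a scavenger receptor gene, was at 93.5, 91.8 and 118 CPM in young livers and 72.6, 47.1 and 28.1 in old (log2 -1.04 ± 0.43, adjusted p = 0.276). For sinusoidal endothelium the same was seen in 8 of 14 markers, with a median of -0.28 and summed levels of 1228 to 1256 CPM in young and 977 to 1168 CPM in old, and Stab1, a scavenger receptor gene of these vessels, was at 157, 176 and 153 CPM in young livers and 114, 111 and 125 in old (log2 -0.47 ± 0.16, adjusted p = 0.176). Pirb, an inhibitory receptor gene of myeloid cells, had log2 -1.09 ± 0.33, adjusted p = 0.119, and Clec2h, a C-type lectin gene, was at 7.71, 40.3 and 8.29 CPM in young livers and 0.429, 1.45 and 0.0 in old without passing.

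**Figure D4:**
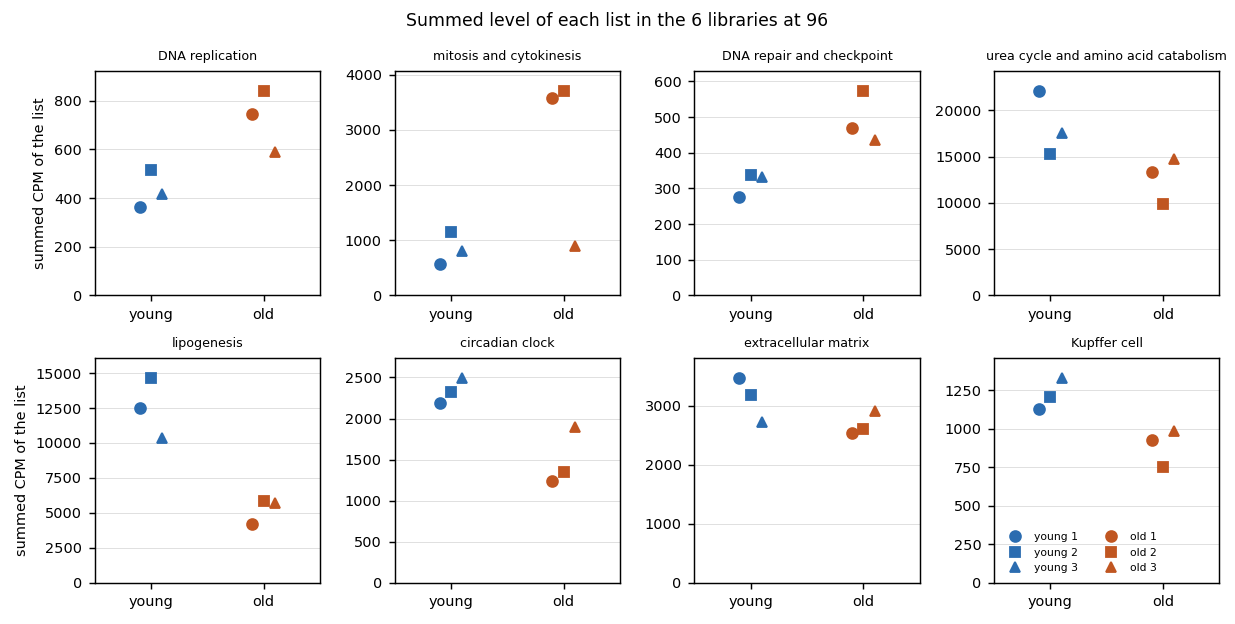
Summed CPM of the tested members of 8 lists in each library at 96, with young in blue, old in orange and the shape giving the library number; each vertical axis starts at 0. The groups stand apart for DNA replication, DNA repair, the urea cycle list, lipogenesis, the clock and Kupffer cell markers, while for mitosis old 3 lies among the young livers at 895 CPM and for the matrix list the ranges overlap.

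Metabolic genes of the hepatocyte had few calls, and those in lipogenesis and amino acid catabolism leaned lower. In lipogenesis 1 of 24 members fell, Scd1, beside 0.141% of all genes. At an unadjusted p under 0.05, 7 were lower, beside 5.86% of all genes, and 0 higher, with a median change of -0.28. Srebf1, which encodes the lipogenic factor SREBP-1, was at 372, 591 and 571 CPM in young livers and 146, 241 and 246 in old (log2 -1.28 ± 0.31, adjusted p = 0.0533). Thrsp, a gene that SREBP-1 and thyroid hormone induce, was at 1173, 1029 and 458 CPM in young livers and 68.7, 144 and 203 in old (log2 -2.67 ± 0.64, adjusted p = 0.0509). Acss2, an acetyl-CoA synthetase gene, had log2 -1.15 ± 0.39, adjusted p = 0.160. In all of these the 3 old values were below the 3 young ones. Genes of lipid droplets and lipid export were less uniform: 4 of 20 were higher at an unadjusted p under 0.05 and 0 lower, beside 7.49% and 5.86% of all genes. Their median was 0.48, and without old 1 it was 0.03. Without young 2 or old 3, 2 were higher, and without young 3, 1 was higher and 1 lower. Apoa4, an apolipoprotein gene, was at 833, 579.5 and 1306 CPM in young livers and 3011, 3258 and 3423 in old (log2 1.83 ± 0.49, adjusted p = 0.0835), Plin5, a droplet coat protein gene, had log2 0.90 ± 0.33, adjusted p = 0.212, and Cd36 and Pparg, the genes of a fatty acid transporter and of a lipid-storage receptor, had log2 0.72 ± 0.33, adjusted p = 0.337 and log2 0.60 ± 0.29, adjusted p = 0.356.

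Amino acid catabolism leaned to lower values in old liver. Of 29 genes of the urea cycle and amino acid breakdown 14 were lower and 0 higher at an unadjusted p under 0.05, which is 48.3% against 5.86% of all genes. Their median change was -0.63. None was called with edgeR, and 2 were with DESeq2, which called 230 of all 13436 genes tested. Prodh, proline dehydrogenase, was at 229, 161 and 179 CPM in young livers and 67.8, 69.3 and 107 in old (log2 -1.22 ± 0.30, adjusted p = 0.0595). Sds, serine dehydratase, was at 172, 106 and 104 CPM in young livers and 49.4, 27.1 and 54.3 in old (log2 -1.55 ± 0.45, adjusted p = 0.101). Hal, histidine ammonia-lyase, was at 486, 352 and 551 CPM in young livers and 88.0, 138 and 306 in old (log2 -1.38 ± 0.43, adjusted p = 0.124). Haao, an enzyme gene of the path from tryptophan to NAD, had log2 -0.79 ± 0.23, adjusted p = 0.1104. Without young 1, old 1 or old 2, 8, 9 and 7 were lower. Ghr, the growth hormone receptor gene, was at 750.3, 925 and 835 CPM in young livers and 371, 454 and 527 in old (log2 -0.89 ± 0.24, adjusted p = 0.0863). Its target Igf1 had log2 -0.29 ± 0.27, adjusted p = 0.704. Gys2, liver glycogen synthase, had log2 -1.03 ± 0.31, adjusted p = 0.119.

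Fatty acid oxidation, drug metabolism and secreted proteins had few calls. Over all genes 7.49% were higher and 5.86% lower at an unadjusted p under 0.05, and 0.141% were called lower. The shares higher and lower were 13.8% and 3.45% for oxidation and 4% and 12% for cholesterol. They were 11.5% and 0% for acute phase and 9.38% and 3.12% for heat shock and unfolded protein genes. Cytochrome P450 genes had 0% and 3.23%, and secreted plasma proteins 5% and 2.5%. Of 29 oxidation genes 4 were higher and 1 lower at an unadjusted p under 0.05: Cyp4a31 had log2 1.68 ± 0.47, adjusted p = 0.0971, Pdk4, the kinase that limits pyruvate use, log2 2.14 ± 0.93, adjusted p = 0.306, and Ppara, the nuclear receptor of fasting, log2 -0.67 ± 0.29, adjusted p = 0.308. The hormone gene Fgf21 was at 0.503, 1.33 and 0.0 CPM in young livers and 4.72, 9.51 and 3.66 in old, on at most 7 counts a young library. Of 31 cytochrome P450 genes only Cyp2d22 was called, Cyp2e1 had log2 -0.58 ± 0.35, adjusted p = 0.495, and Cyp7a1, the rate-limiting enzyme of bile acid synthesis, varied in both groups (log2 -0.93 ± 0.93, adjusted p = 0.739). Of 25 cholesterol genes 3 were lower and 1 higher at an unadjusted p under 0.05, and 1 to 3 were lower when 1 library was left out, with Tm7sf2, a sterol reductase gene, at 105, 89.3 and 89.0 CPM in young livers and 32.2, 63.5 and 45.3 in old (log2 -0.996 ± 0.26, adjusted p = 0.0714). Among acute phase genes 3 of 26 were higher and 0 lower: Lcn2, lipocalin 2, was at 83.2, 33.6 and 89.3 CPM in young livers and 566, 80.8 and 289 in old (log2 2.18 ± 0.69, adjusted p = 0.137), Steap4, a metalloreductase gene, had log2 1.002 ± 0.28, adjusted p = 0.0971. Saa1, a serum amyloid gene, overlapped widely (log2 0.33 ± 0.96, adjusted p = 0.926). Hamp2, a hepcidin copy, was at 52.5, 9.69 and 29.6 CPM in young livers and 0.429, 1.24 and 0.0 in old, and Hamp, its near-identical partner, had log2 0.37 ± 0.51, adjusted p = 0.822, so their reads may be shared. The fetal marker Afp had log2 0.85 ± 0.47, adjusted p = 0.458, and the pericentral gene Glul log2 0.20 ± 0.39, adjusted p = 0.878. The growth factor gene Hgf had log2 0.07 ± 0.33, adjusted p = 0.957, and Myc, an early gene of regeneration, log2 0.32 ± 0.60, adjusted p = 0.873. The receptor gene Fgfr4 had log2 0.64 ± 0.20, adjusted p = 0.135. Leaving out 1 library gave 2 to 5 higher oxidation genes and 1 to 9 higher acute phase genes. Heat shock and unfolded protein genes were higher in 3 of 32 and lower in 1, and 2 to 11 were higher when 1 library was left out, with Hsp90aa1 at 148, 179.9 and 130.2 CPM in young livers and 478, 321 and 217 in old (log2 1.15 ± 0.29, adjusted p = 0.0609) and Hspb1 showing log2 1.89 ± 0.55, adjusted p = 0.104. The protease gene Capn11 was at 0.0, 0.0 and 0.276 CPM in young livers and 2.15, 5.58 and 0.562 in old and did not pass.

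The age difference at 96 was then set against that at the other time points, with tests of the difference itself. Against 48, 832 genes differed (6.19%), 626 of them with a higher value at 96 (4.66%) and 206 with a lower one (1.53%). Of the 62 mitosis genes 60 were among the higher ones, as were 28 of 36 DNA replication genes, 20 of 28 repair genes and 45 of 54 histone genes. The smallest p belonged to Rrm1, with a mean of 83.8 ± 15.9 CPM (young) and 20.3 ± 4.65 CPM (old) at 48, and 17.5 ± 2.50 CPM and 38.2 ± 9.43 CPM at 96 (difference log2 3.17 ± 0.37, adjusted p = 3.54e-05). Mastl, the kinase gene that restrains PP2A in mitosis, Ndc1, a nuclear pore gene, and Spc25, a kinetochore gene, came next, with differences of log2 3.88 ± 0.49, adjusted p = 7.34e-05, log2 3.04 ± 0.39, adjusted p = 7.34e-05 and log2 3.57 ± 0.47, adjusted p = 9.49e-05. Mki67 was at 2288 ± 778 CPM (young) and 243 ± 284 CPM (old) at 48, and at 269.9 ± 104 CPM and 800.4 ± 467 CPM at 96 (difference log2 4.803 ± 1.05, adjusted p = 0.00408). Its mean was 1095 ± 637 CPM and 1014 ± 401 CPM at 72 and 154 ± 27.8 CPM and 499.8 ± 106 CPM at 120. Of the time points, the young mean was highest at 48 and the old mean at 72. With the 12 libraries that held Y-linked transcripts left out, 394 genes differed between 96 and 48, and leaving out single libraries gave 579 to 1235.

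Against the time before regeneration, 2 genes differed in age effect, which is 0.0149% of those tested. Slc16a1 was at 111 ± 29.8 CPM (young) and 80.4 ± 29.0 CPM (old) before regeneration, and its age difference was larger by log2 2.05 ± 0.36, adjusted p = 0.0227 at 96. Ablim3, an actin-binding LIM protein gene, was at 49.5 ± 9.31 CPM and 20.9 ± 2.12 CPM before regeneration and 29.5, 28.1 and 26.0 CPM in young livers and 50.2, 42.6 and 37.7 in old at 96 (difference log2 1.87 ± 0.29, adjusted p = 0.00510). The next smallest p belonged to Wfdc17 (log2 -3.49 ± 0.76, adjusted p = 0.263) and Pirb (log2 -2.05 ± 0.45, adjusted p = 0.263), which did not pass. DESeq2 called 9 genes in this test. Against 72 and 120, 0 genes differed with edgeR or DESeq2, and 625 and 298 had an unadjusted p under 0.05 with edgeR, which is 4.65% and 2.22%. The age comparisons at 72 and 120 called 0 and 11 genes (0.0819%) on their own.

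The called genes also varied over the time points, given here as means ± SD of 3 libraries. Slc16a1 was at 293 ± 56.5 CPM and 168 ± 34.0 CPM in young at 48 and 72, and at 362 ± 43.5 CPM and 213 ± 25.6 CPM in old, before the 96 values of 78.1 ± 14.1 CPM and 234 ± 83.0 CPM. Tubb2a was at 136 ± 44.4 CPM (young) and 213 ± 36.8 CPM (old) at 48, and by 240 at 19.4 ± 1.71 CPM and 35.9 ± 35.6 CPM. Ly6d had its highest old mean at 48, 240.5 ± 164 CPM, beside 39.2 ± 28.2 CPM in young, a time point with 1530 genes called (11.4%), Ly6d among them (log2 2.62 ± 0.67, adjusted p = 0.00979). Arntl was at 11.03 ± 1.90 CPM (young) and 13.2 ± 6.51 CPM (old) at 48, and Ciart at 1.52 ± 0.255 CPM and 3.32 ± 2.03 CPM. Ces3b was at 52.3 ± 18.5 CPM and 63.9 ± 50.6 CPM in young at 48 and 72 and 403 ± 153 CPM at 120, and in old at 61.8 ± 46.6 CPM at 120. Col3a1 was at 220.3 ± 141 CPM (young) and 41.6 ± 4.94 CPM (old) at 72, which did not pass (log2 -2.40 ± 0.51, adjusted p = 0.0681), and at 70.2 ± 13.9 CPM and 50.2 ± 22.8 CPM at 120.

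**Figure D5:**
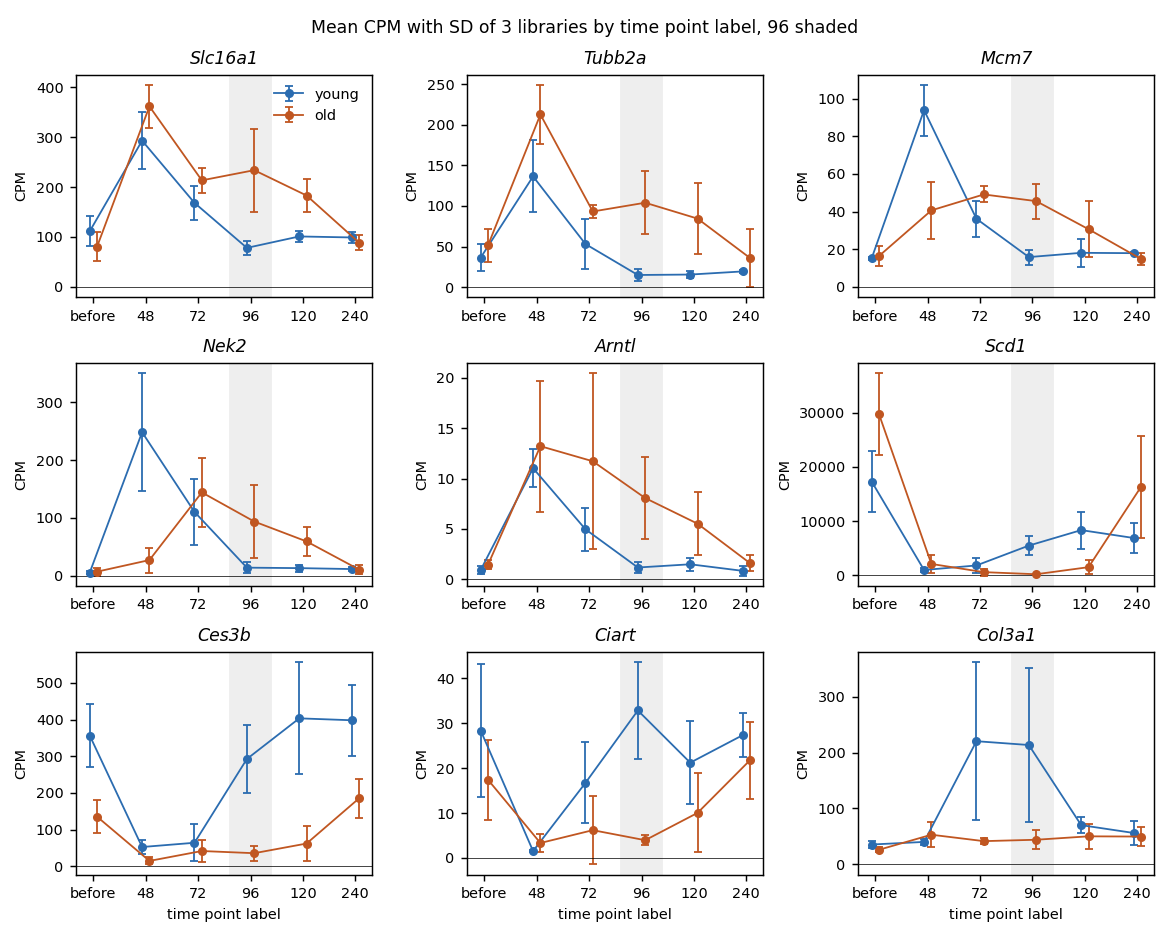
Mean CPM with the SD of 3 libraries by time point label for 9 genes, young in blue and old in orange, with 96 shaded. For Slc16a1, Tubb2a, Mcm7 and Arntl the young mean is highest at 48 and low by 96 while the old mean at 96 is above it; for Scd1, Ces3b and Ciart the young mean at 96 is above those at 48 and 72 and the old mean at 96 is not above both.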

How the data were processed

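Liver RNA from C57BL/6JN mice of 2 ages was sequenced at 6 time points, 3 libraries each, from total RNA depleted of ribosomal RNA, with different ERCC spike-in mixes for young and old, per the labels' protocols. The authors deposited whole-number read counts per gene symbol for each library. Per the submitters' processing notes, the tools were bcl2fastq 2.20.0, Trimmomatic 0.39, FastQC 0.11.9, STAR 2.7.5b, SAMtools 1.10, Picard 2.20.8, deepTools 3.5.0 and featureCounts, with build GRCm38 (mm10); the gene annotation and strand setting are not given in the sources used here. The spike-ins were not used here, since 0 ERCC rows were found among 21955 symbols, and 27 symbols had been turned into dates.

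All 36 libraries were fitted together with edgeR 4.0.16 in R 4.3.3 (TMM scaling, filterByExpr on the 12 groups, quasi-likelihood test, 24 residual degrees of freedom), with Benjamini-Hochberg adjustment over 13436 genes and a threshold of 0.05. The fit was also run on simulated counts that gave each gene the same spread in every group, so that run cannot speak for groups of unequal spread. Alternatives were DESeq2 1.42.0, other scalings and filters, a robust fit, a replicate block, a term for Y-linked transcripts, fewer libraries and each library left out. The standard error is the size of the log2 fold change divided by the square root of F. The spread of each gene was estimated over the 12 groups together, although the groups differed. The relative spread between replicates (biological coefficient of variation) was 19.73% in young and 23.24% in old at 96, and 40.63% in old at 48. P-values at 96 therefore rest on the spread between libraries in all groups. Depth at 96 was 2328233 to 5992831 counts a library, and whether the counts hold PCR copies was not tested.

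Named genes were, by rule, the 15 called genes of smallest p in each direction, a list of liver genes, the called members and the 4 of smallest p in each list, the 4 of smallest p in each test between time points, and the 5 largest changes each way without overlap. The remaining called genes, and Per2, Per3, Usp2, Npas2 and Nfil3, were named after their values were seen. A few list members are not reported here by name. Promoters are from RefSeq (GRCm38.p6). Members and lists were chosen with earlier results of these data known, and the E-box and the ROR element were added after seeing the data.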

Additional observations from a re-analysis of the deposited data

Results flagged for a closer look

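Tests of the difference between time points gave the values here, each the age difference in log2 (old minus young) at 96 minus the same at the other time point. Against the time before regeneration 2 genes differed: Slc16a1 by 2.05 and Ablim3 by 1.87. Against 48, 832 genes differed, and the values below are for the named genes among them.

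Named genes of cell cycle and DNA repair all had a larger value at 96 than at 48: the difference was Ccnb1 7.05, Nek2 5.92, Kif20a 5.53, Ect2 5.4, Mybl1 4.89, Ccna2 4.81, Mki67 4.8, Foxm1 4.77, Top2a 4.59, Cdk1 4.54, Rrm2 4.15, Mastl 3.88, Cdc6 3.77, Mcm5 3.67, Spc25 3.57, Chek1 3.44, Rrm1 3.17, Fen1 3.12, Mcm7 2.73, Mcm2 2.69, E2f1 2.61, Brca1 2.56, E2f8 2.29, Pcna 2.11, Brca2 2.01 and Mdc1 1.9. Named genes of chromatin, nuclear envelope and pore all had a larger value at 96 than at 48: the difference was H2afx 4, Hells 3.81, Uhrf1 3.2, Ndc1 3.04, Lmnb1 2.37, Ezh2 1.81, Lmna 1.3, Kpnb1 1.23 and Dnmt1 1.14. The other named genes with a larger value at 96 had differences of Capn11 8.55, Atp2b2 3.41, Tubb4b 2.84, Trim2 1.97, Slc45a3 1.63, Hsp90aa1 1.6, Dynll1 1.57, Lrfn3 1.51, Clock 1.31, Slc16a1 1.27 and Pvrl1 0.86. Matrix, myeloid, endothelial and muscle genes had a smaller value at 96 than at 48: Thbs1 -6.22, F13a1 -6.18, Itgam -5.09, Myh11 -3.48, Spp1 -3.13, Col1a1 -3.01, Col3a1 -2.67, Col1a2 -2.56, Pirb -2, Fbn1 -1.61 and Stab1 -1.02. So did genes of metabolism, transcription and the clock: Scd1 -6, Ciart -4.08, Per2 -1.89, Ppargc1b -1.71, Zfp467 -1.06 and Shpk -0.88. Young 2 was the highest of the 6 libraries at 96 for Itgam, Spp1, Col1a1 and Thbs1, and young 1 for Myh11, and the part of these libraries in those differences was not tested.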

How the results depend on the processing

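Of the 54 genes that differed between the ages at 96, 0 kept the call in each of 17 alternatives and 0 changed direction in any. The number called was 32 with total-count scaling, 230 with DESeq2, 23 with the robust test, 148 with Y-linked transcripts as a term and 21 without the 12 libraries that held them. With the replicate number as a block 87 were called, 53 of them among the 54. With only the 6 libraries at 96 fitted, 47 were called, 20 of them among the 54, and with that block added 7 were. Deviations of same-numbered old and young livers correlated at -0.103, -0.161 and 0.27. The highest value was 0.369, for old 1 with young 2, the 2 libraries at 96 that held Y-linked transcripts. With 3 libraries an age, these values cannot decide whether replicate numbers pair the livers. Leaving out 1 library gave 0 to 116. Against the time before regeneration the 2 calls became 1 with total-count scaling, 9 with DESeq2, 5 with the Y-linked term, 5 without those 12 libraries, and 1 to 3 with 1 library left out. Against 48 the 832 became 394 without those libraries, and against 72 the 0 became 1 with the Y-linked term. Except that fewer samples enter some fits, the cause was not tested.

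Of the genes whose direction turned, Myh11 passed the test, as lower, in 1 alternative (DESeq2, adjusted p = 0.0360), and the others in none. Leaving out 1 library, the log2 difference ran from -0.13 to 0.48 for Ezh2, -0.091 to 0.11 for Alb at 96, -0.039 to 0.40 for Glul, -0.24 to 0.67 for Hamp, -0.50 to 0.90 for Saa1, -0.13 to 0.33 for Hgf, -3.77 to 2.28 for Gpnmb and -2.69 to 0.19 for Myh11. Without the Y-linked libraries it was -0.23 for Hamp and 2.50 for Gpnmb, and with the 6 libraries and the block -0.39 for Saa1. Old 1, with 2328233 counts, limits what low genes can show.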
